A study of Rattus norvegicus with 8 samples.

Results

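The Gimap genes encode a family of small GTP-binding proteins named GTPases of immunity-associated proteins. Their genes lie side by side in the genome, and they are best known from lymphocytes, where they act in the development, survival and death of T and B cells. A loss-of-function allele of Gimap5 is the lymphopenia (lyp) mutation of the BioBreeding rat, a classical model of autoimmune diabetes, and some members are also active in endothelium.

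The family was described here in pancreatic islets of Sprague-Dawley rat fetuses, on 8 Affymetrix whole-transcript arrays. Dams had been operated on at embryonic day 18, with a procedure that limits growth of the fetuses (IUGR, short for intrauterine growth restriction) or with a sham procedure, and islets were taken at embryonic day 19. Each array holds the islets pooled from 1 whole litter, so the 4 sham and the 4 IUGR arrays are 8 litters of 8 dams. The labels name no genotype difference, no sort of the cells and no measure of growth restriction for the litters.

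All 7 Gimap genes of the rat RefSeq annotation (assembly GRCr8) had exactly 1 probe set with 1 gene symbol, among 14506 genes measured in that way. The members were chosen by name, but the family was chosen because of a measured value: Gimap7 was among 36 genes past an adjusted p of 0.05 between IUGR and sham litters, and 1 of only 2 that were lower. For Gimap7 that difference is therefore a description and not a test. The other 6, Gimap1, Gimap4, Gimap5, Gimap6, Gimap8 and Gimap9, belong by family name, not by a value of their own, though earlier results of these data were known.

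Some facts of the whole set of arrays touch these genes. The islet hormone genes Ins1, Ins2, Gcg and Iapp lay between 11.19 and 14.24 on the log2 scale over the 8 arrays, whose maxima were 14.15 to 14.44. Sham replicates 2, 3 and 4 had a narrower spread of gene values (interquartile ranges of 3.06 to 3.23) than sham replicate 1 (3.63) and the 4 IUGR arrays (3.53 to 3.62). Leukocyte genes were highest in sham replicate 1 and lowest in IUGR replicates 1 and 4.

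In the RefSeq order of rat chromosome 4 the 7 genes run as Gimap8, Gimap9, Gimap4, Gimap6, Gimap7, Gimap1 and Gimap5, with 0 other annotated genes between them. Gimap6 alone lies on the minus strand in the promoter table. The promoter windows of RefSeq (250 bases before to 50 after the annotated start, GRCr8) were read for all 7, because 6 members moved alike across litters and 1 did not. ETS factors, a family that includes regulators of lymphocyte and endothelial genes, bind around a GGAA core. The motif GGAAGT, chosen after the sequences had been seen and searched on both strands (ACTTCC on the other), was in 5 of the 7 windows against 22.6% of 33469 windows of the same length. It was absent from the windows of Gimap7 and Gimap8. A match is a description of letters and not a binding site.

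The stretches that hold the motif are shown so that the members can be compared, 30 bases each, 5′ to 3′ along the gene, with the motif in capitals. For Gimap9 the stretch is chr4:78957371-78957400 (plus strand), for Gimap4 chr4:78967239-78967268 (plus), for Gimap1 chr4:79018423-79018452 (plus) and for Gimap5 chr4:79025208-79025237 (plus). The 2 stretches of Gimap6 are chr4:78990107-78990136 and chr4:78989957-78989986 (minus).
Gimap9: tccgcccatagaACTTCCtgactgactggc
Gimap4: ttcctccccctcACTTCCtctctgctactc
Gimap1: ggcggactagtgACTTCCtctatgctcagc
Gimap5: aggctttccacaGGAAGTggtcatttacta
Gimap6, upstream: aagatcaccctaGGAAGTgagcttggctcc
Gimap6, downstream: agctgtgactgagcGGAAGTgactggtttg

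The motif began 68 bases before the annotated start in Gimap9, 46 in Gimap4, 38 in Gimap1 and 5 in Gimap5. In Gimap6 it began 118 bases before the start and again 34 after it. The whole window of Gimap7, the member that was lower in every IUGR litter, is given as well (chr4:79001166-79001465, plus strand). It has no capitals because it holds no match to GGAAGT. The shorter GGAA core does occur in it, as TTCC, which is GGAA on the other strand. The window of Gimap8, a member that moved unlike Gimap7 across litters, holds no match to GGAAGT either. The motif was chosen after the sequences had been seen, and a link between its absence and the Gimap7 values was not tested.
Gimap7: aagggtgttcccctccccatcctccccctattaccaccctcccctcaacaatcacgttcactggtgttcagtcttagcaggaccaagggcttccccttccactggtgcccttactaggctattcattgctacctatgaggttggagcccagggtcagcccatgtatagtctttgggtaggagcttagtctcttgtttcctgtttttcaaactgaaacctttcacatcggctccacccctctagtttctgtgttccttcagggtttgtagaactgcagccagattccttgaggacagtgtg

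A second motif, TGTGGT, the core read by RUNX factors of blood cells, was searched in the same way (ACCACA on the other strand). It was in 2 of the 7 windows, those of Gimap8 and Gimap1, against 17.3% of all windows. Neither motif was in the window of Gimap7.

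Gimap7 encodes a member that can form dimers and speed up GTP hydrolysis by its partners. Its log2 value was 7.51, 7.68, 7.66 and 8.09 in sham replicates 1 to 4 and 6.81, 6.90, 6.94 and 6.78 in IUGR replicates 1 to 4. Every IUGR litter was below every sham litter, and the IUGR litters lay closer together than the sham litters, among which replicate 4 was highest. The means were 7.73 ± 0.25 in sham and 6.86 ± 0.07 in IUGR islets (SD, n = 4 litters each), a difference of -0.88 ± 0.13 (SE), or 0.54 times the sham level on the linear scale. In these pools, fewer cells of a type and less RNA per cell cannot be told apart.

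The limma adjusted p that brought Gimap7 past the threshold was 0.048, against 0.043 for Ndn, the other lower gene. The nearest lower genes outside were Cdkn1c (-0.74, adjusted p = 0.070) and C1qtnf5 (-0.65, adjusted p = 0.072). Over all genes, 0.248% passed in either direction and 0.0138% passed as lower. IUGR litters all below sham litters were found for 5.45% of all genes. Since Gimap7 was picked on this contrast, these shares are printed for scale only. The adjusted p was 0.075 after quantile normalization, 0.006 without sham replicate 1 and 0.157 without IUGR replicate 1 (limma).

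**Figure D1:**
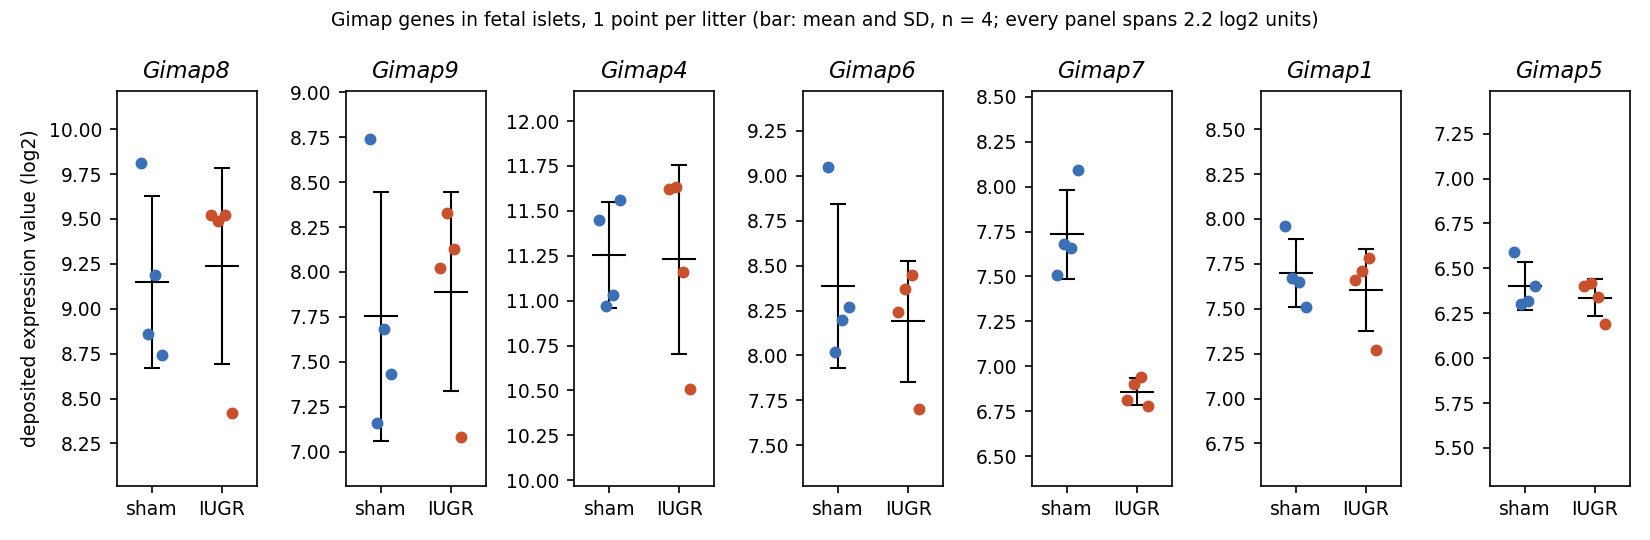
Log2 value of each Gimap gene (y axis) in 4 sham and 4 IUGR litters (x axis), 1 point per litter, with the mean and SD as a bar; every panel spans the same range of log2 units, and levels of different probe sets cannot be compared. Gimap7 has separate groups (7.51 to 8.09 against 6.78 to 6.94), and in the other 6 panels the groups overlap.

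None of the other 6 members passed between IUGR and sham litters (limma, Benjamini-Hochberg over 14506 genes), and in all 6 the groups overlapped. Over all genes only 0.248% passed, and 5.45% had all IUGR litters below all sham litters. Gimap6, which has been linked to autophagy in T cells, measured 9.05, 8.02, 8.20 and 8.27 in sham replicates 1 to 4 and 8.24, 8.37, 8.45 and 7.70 in IUGR replicates 1 to 4. Sham replicate 1 was the highest litter and IUGR replicate 4 the lowest. The difference was -0.19 ± 0.25 (SE, adjusted p = 0.630), with a 95% interval from -0.77 to 0.38.

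Gimap5, the gene of the lymphopenic rat and a survival factor of T cells, measured 6.59, 6.30, 6.32 and 6.40 in the sham litters and 6.40, 6.42, 6.34 and 6.19 in the IUGR litters. It differed by -0.06 ± 0.10 (adjusted p = 0.678), with an interval from -0.29 to 0.16. That sign was not stable: after quantile normalization the difference was 0.12 and after cyclic loess 0.05. The 1451 genes of the same signal decile, the second from the dimmest, differed by a median of -0.16 (0.03 after quantile normalization), and 85% of them were lower in IUGR islets. The narrower signal range of sham replicates 2 to 4 moved with that shift, and its part in the Gimap5 value was not tested.

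Gimap1, which mature lymphocytes need for survival, measured 7.96, 7.67, 7.65 and 7.51 in the sham and 7.66, 7.71, 7.78 and 7.27 in the IUGR litters. The 3 IUGR litters other than replicate 4 lay inside the sham range. Gimap1 differed by -0.09 ± 0.14 (adjusted p = 0.682), with an interval from -0.42 to 0.23.

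Gimap4, an accelerator of T cell death, was 11.45, 10.97, 11.03 and 11.56 in the sham litters and 11.62, 11.63, 11.16 and 10.51 in the IUGR litters. Here IUGR replicates 1 and 2 were the highest of all 8 litters and IUGR replicate 4 the lowest. The difference was -0.02 ± 0.27 (adjusted p = 0.963), with an interval from -0.63 to 0.59.

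Gimap8, the largest protein of the family with several GTP-binding domains, was 9.81, 8.86, 9.19 and 8.74 in the sham litters and 9.52, 9.49, 9.52 and 8.42 in the IUGR litters. IUGR replicates 1 to 3 were nearly equal, and replicate 4 was the lowest of all 8 litters. Gimap8 differed by 0.08 ± 0.32 (adjusted p = 0.879), with an interval from -0.64 to 0.81. Gimap9 was 8.74, 7.16, 7.68 and 7.43 in the sham litters and 8.02, 8.33, 8.13 and 7.08 in the IUGR litters. It differed by 0.14 ± 0.38 (adjusted p = 0.838), with an interval from -0.75 to 1.02. For Gimap7 the interval was -1.17 to -0.58, which overlaps those of Gimap4, Gimap6, Gimap8 and Gimap9 and belongs to a value that was selected. After quantile normalization the sign also turned for Gimap8 (-0.03), while Gimap9 (0.19), Gimap4 (-0.12), Gimap6 (-0.25) and Gimap1 (-0.06) kept theirs.

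The 6 members had sham replicate 1 above and IUGR replicate 4 below their group means, while the order of the other litters varied among them. Gimap4 differed most, with sham replicate 4 (0.30) above sham replicate 1 (0.20). Taken as deviations from the group mean, sham replicate 1 was above its group in all 6, by 0.19 (Gimap5) to 0.99 (Gimap9). IUGR replicate 4 was below its group in all 6, at -0.15 (Gimap5) to -0.82 (Gimap8). Gimap7 ran the other way in sham replicate 1, at -0.23, and was highest in sham replicate 4, at 0.35. Over the 8 litters the Pearson correlation of these deviations had a median of 0.88 across the 15 pairs without Gimap7, from 0.57 (Gimap4 with Gimap1) to 0.97 (Gimap9 with Gimap6). Over the 6 pairs with Gimap7 the median was -0.27, from -0.36 (Gimap8) to 0.30 (Gimap4). These values are a description: the genes share arrays, and any effect common to an array enters every pair. Probe sequences were not used here, so how far the probe sets of these related genes also read each other's transcripts was not tested.

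After quantile normalization the median was 0.85 for the pairs without Gimap7 and -0.24 for those with it. Leaving out 1 litter at a time, the median of the 15 pairs stayed between 0.83 and 0.92. The lowest single pair was at -0.07 without IUGR replicate 4. The median of the pairs with Gimap7 was 0.35 without sham replicate 1 and between -0.48 and -0.12 otherwise, so its sign rested on that litter. Gimap6 and Gimap1, which flank Gimap7 in the annotation, had deviations that correlated with it at -0.22 and -0.35.

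**Figure D2:**
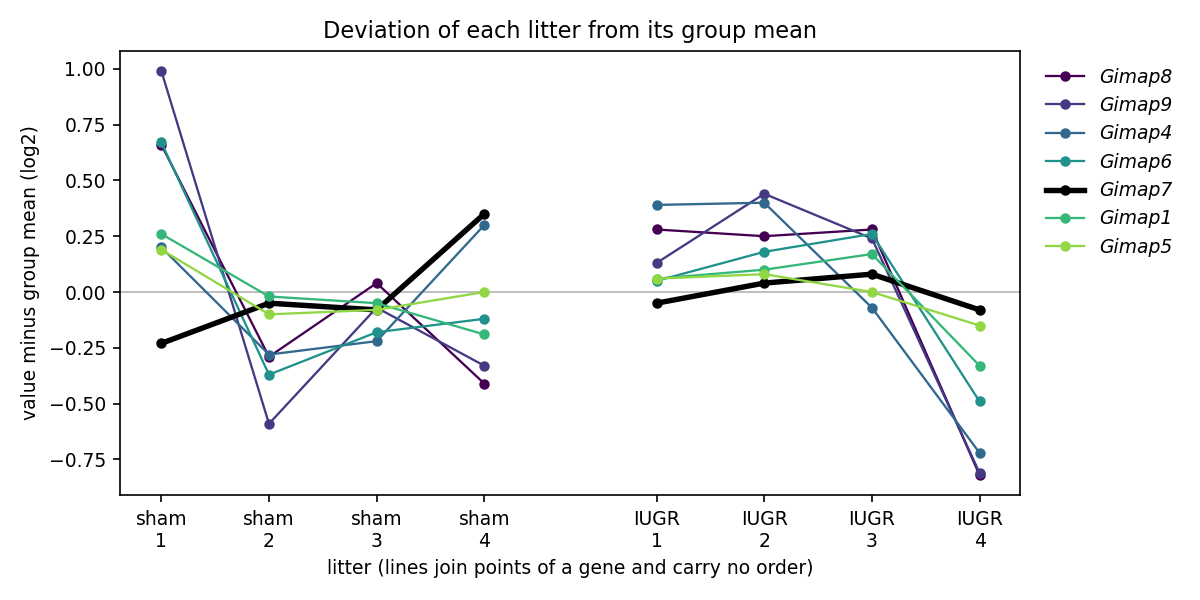
Deviation of each litter from its group mean (y axis, log2) for the 7 Gimap genes, by litter (x axis); lines join the points of a gene. The 6 thin lines are all above 0 in sham replicate 1 and all below 0 in IUGR replicate 4, while Gimap7 (thick line) is at -0.23 and -0.08 there.

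Within an array the distance of Gimap7 from the mean of the other 6 was -1.43, -0.48, -0.69 and -0.23 in sham replicates 1 to 4 and -1.77, -1.76, -1.63 and -1.08 in IUGR replicates 1 to 4. These groups overlapped, since IUGR replicate 4, with the lowest mean of the 6 (7.86), lay above sham replicate 1, with the highest (8.93). A distance of this kind shows unequal change between probe sets and carries no level.

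The nearest measured genes on both sides of the family were set beside it. RGD1559747, which lies between Zfp775 and Gimap8, was not analysed here. Zfp775 and Repin1, zinc finger genes on the Gimap8 side, had differences of 0.60 ± 0.12 (adjusted p = 0.074) and 0.40 ± 0.09 (adjusted p = 0.090, limma), each with all IUGR litters above all sham litters. The share of all genes with IUGR litters above all sham litters is not given here. Both genes passed without sham replicate 1, where 18.9% of all genes passed. Repin1 also passed without sham replicate 4, where 1.08% of all genes did. On the Gimap5 side, Tmem176b, a membrane protein gene of myeloid cells, differed by -0.37 ± 0.21 (adjusted p = 0.282) and Tmem176a by 0.04 ± 0.24 (adjusted p = 0.924). None of these 4 neighbours was below the sham litters in every IUGR litter, but only 5.45% of all genes were.

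Lymphocyte genes gave the nearest comparison for the family. No member of the T cell, B cell or NK cell lists passed, 0 of 20, 0 of 10 and 0 of 17 in either direction, beside 0.248% of all genes. At that share, 0 calls in lists of this size is no result about their genes. The same holds for the other lists below. The median differences of the T cell, B cell and NK cell lists were -0.20, -0.61 and -0.33, beside 0.04 over all genes. In the T cell list 19 of 20 genes were lower, but that shift was -0.03 after quantile normalization, where the B cell and NK cell medians were -0.66 and -0.33. Unadjusted p-values under 0.05 were found for 5 of 20, 2 of 10 and 7 of 17 genes, beside 26.1% of all genes. Without sham replicate 1, 4 T cell, 0 B cell and 5 NK cell genes passed, beside 18.9% of all genes.

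Single lymphocyte genes differed in how they divided the litters. Cd27, a co-stimulatory receptor of T and B cells, was 7.06, 7.11, 6.89 and 7.22 in the sham and 6.63, 6.46, 6.52 and 6.71 in the IUGR litters, a difference of -0.49 ± 0.10 (adjusted p = 0.077). Cxcr6, a chemokine receptor of tissue lymphocytes, differed by -0.69 ± 0.13 (adjusted p = 0.072) and Xcl1, a chemokine of NK and T cells, by -0.48 ± 0.10 (adjusted p = 0.080). In these 3 genes, as in Gimap7, all IUGR litters were below all sham litters.
Ccr7 (-0.53), Cd6 (-0.28), Klrg1 (-0.33), Cd3d (-0.22), Fcrla (-0.74), Blk (-0.39) and Ms4a1 (-0.14) also had separate groups and adjusted p-values from 0.103 to 0.163 or, for Ms4a1, 0.262. Ccr7, Cd6, Klrg1, Fcrla and Blk were named for their small p, so their separate groups are no independent result. All IUGR litters lay below all sham litters in 5 of 20 T cell, 3 of 10 B cell and 5 of 17 NK cell genes. That share was 5.45% over all genes, and the counts were not tested against it. After quantile normalization Cd3d was at -0.05, Cd6 at -0.11 and Ms4a1 at 0.03.

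The T cell receptor subunit Cd3e (-0.24 ± 0.11), Cd2 (-0.18 ± 0.10), Cd8a (-0.16 ± 0.11), Cd4 (-0.35 ± 0.37), the T cell kinase Lck (-0.37 ± 0.25) and the NK granule gene Nkg7 (-0.36 ± 0.32) had overlapping groups and did not pass. After quantile normalization Cd2 and Cd8a were at 0.01 and 0.02. Some of these markers were dim. Cd3e lay at 5.92 to 6.41, Cd3d at 5.79 to 6.27, Cd2 at 6.18 to 6.72 and Ms4a1 at 5.82 to 6.16. Gene means in the decile second from the dimmest were 5.98 to 6.51, and 85% of its genes were lower in IUGR islets. How far the dim markers read lymphocyte transcripts was not tested. Cd79b, the B cell receptor subunit, had the lowest difference of its list, -1.19 ± 0.54 (adjusted p = 0.200). It was 11.32, 10.14, 10.13 and 10.04 in the sham litters but 8.08, 9.95, 10.31 and 8.51 in the IUGR litters. Its low values were those of IUGR replicates 1 and 4, while Gimap7 was between 6.78 and 6.94 in all 4 IUGR litters.

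Leukocyte genes in general followed that second pattern. All 18 pan-leukocyte genes were lower in IUGR islets, by a median of -0.62, and 0 passed. Ptprc, which encodes the common leukocyte antigen CD45, was 10.51, 9.22, 9.33 and 9.66 in the sham and 8.09, 9.41, 9.50 and 8.18 in the IUGR litters (-0.88 ± 0.42, adjusted p = 0.216). Cd52 differed by -1.15 ± 0.39, Coro1a by -0.97 ± 0.36 and Itgal by -0.70 ± 0.29, with overlap in each. Cd52, Coro1a and Itgal were named for their small p. The list mean was 10.79 in sham replicate 1, between 9.98 and 10.02 in sham replicates 2 to 4, and 9.02, 10.02, 10.01 and 9.15 in IUGR replicates 1 to 4. Sham replicates 2 to 4 and IUGR replicates 2 and 3 thus had leukocyte means between 9.98 and 10.02, while their Gimap7 values were 7.66 to 8.09 against 6.90 and 6.94. A like leukocyte mean does not make these litters alike in each cell type. Their macrophage means were also close, at 9.29, 9.36 and 9.28 in sham and 9.29 and 9.33 in IUGR litters. Their NK cell means were 7.52, 7.55 and 7.43 in sham and 7.38 and 7.35 in IUGR litters. The T cell means were 7.29, 7.25 and 7.29 against 7.25 and 7.20, and the B cell means 8.06, 8.04 and 8.37 against 7.98 and 8.20. With the pan-leukocyte mean of each array as a covariate, Gimap7 differed by -0.91 ± 0.17 (limma, adjusted p = 0.103). The part of leukocytes in the Gimap7 difference, for which the gene was chosen, was not tested.

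Macrophage genes were lower in 20 of 22 by a median of -0.50 and erythroid genes in 13 of 14 by -0.68, with 0 calls in both lists. The macrophage genes named here were Lyz2 (-0.92 ± 0.29), Csf1r (-0.57 ± 0.26), Fcer1g (-0.76 ± 0.27), Trem2 (-0.42 ± 0.14) and Cd68 (-0.41 ± 0.34). The erythroid ones were the globin gene Hbb-b1 (-0.52 ± 0.14), Ahsp (-0.65 ± 0.22) and Alas2 (-0.95 ± 0.38). Lyz2, Fcer1g, Trem2 and the erythroid genes were named for their small p, so they do not stand for their lists. The macrophage and erythroid list means were again lowest in IUGR replicate 1 (8.51 and 10.10). The part of any of these blood cells in the Gimap values was not tested.

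Endothelial genes differed less. Of 29, 28 were lower in IUGR islets, by a median of -0.15 (-0.28 after quantile normalization), with 0 past the threshold and a lowest adjusted p of 0.171. Pecam1 differed by -0.02 ± 0.26, the endothelial cadherin gene Cdh5 by -0.17 ± 0.24, the angiopoietin receptor gene Tek by -0.15 ± 0.21, the lipid receptor gene S1pr1 by -0.12 ± 0.21 and the VEGF receptor gene Kdr by -0.24 ± 0.16. Cd34 (-0.53 ± 0.21), Plvap (-0.52 ± 0.30) and Ramp2 (-0.49 ± 0.23) were the lowest of the named ones. The list mean was 10.46, 9.99, 10.16 and 10.66 in the sham and 10.24, 10.26, 10.28 and 9.77 in the IUGR litters. Its highest litter, sham replicate 4, was also the highest for Gimap7, and its lowest, IUGR replicate 4, the lowest for all 7 members.

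**Figure D3:**
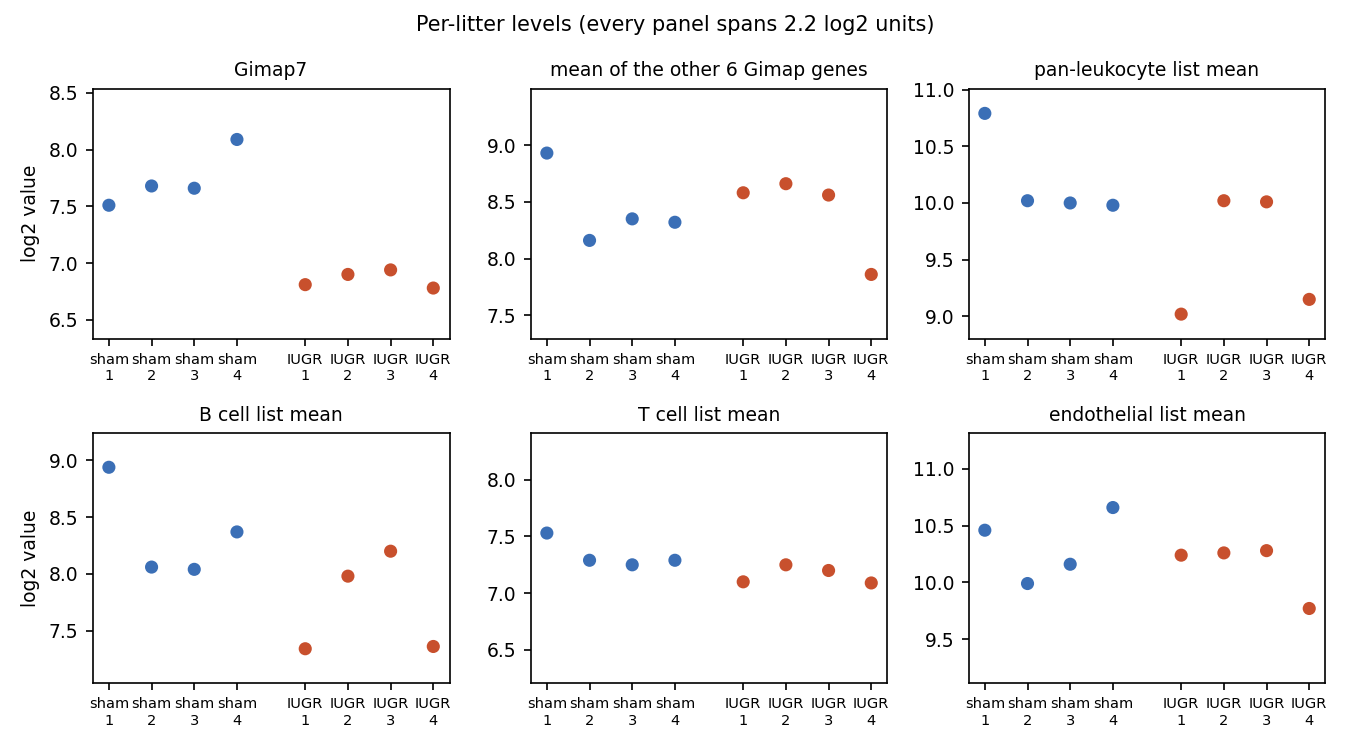
Log2 level per litter (y axis) of Gimap7, of the mean of the other 6 Gimap genes and of 4 marker list means, with sham litters in blue and IUGR litters in red (x axis); every panel spans the same range of log2 units. The pan-leukocyte and B cell means are low in IUGR replicates 1 and 4, Gimap7 is low in all 4 IUGR litters, and the endothelial mean is lowest in IUGR replicate 4 (9.77).

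The 6 members other than Gimap7 were correlated over the 8 litters with the means of 6 lists, 36 relations in all, with exact permutation p-values (two-sided) over 40320 orders. Pearson's r was positive in every relation, from 0.18 (Gimap4 with macrophage genes) to 0.82 (Gimap4 with endothelial genes). Adjusted over the 36, none was under 0.05 (lowest adjusted p = 0.152), while 9 had an unadjusted p under 0.05. Gimap4 stood closer to endothelial genes (r = 0.82, exact p = 0.014, adjusted 0.152, and Spearman's coefficient = 0.64, exact p = 0.096, adjusted 0.495) than to pan-leukocyte genes (r = 0.26, exact p = 0.522, adjusted 0.553, and Spearman's coefficient = 0.12, exact p = 0.793, adjusted 0.865). The difference between those 2 correlations was not tested. Without the 2 litters farthest from the endothelial median, IUGR replicate 4 and sham replicate 4, the first r was 0.62.

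Gimap6 had an r of 0.70 or more with all 6 lists. It was 0.80 with B cell genes (exact p = 0.025, Spearman's coefficient = 0.60, exact p = 0.132) and 0.76 with pan-leukocyte genes (exact p = 0.039, Spearman's coefficient = 0.57, exact p = 0.151), with adjusted p-values of 0.152 for each r and 0.495 for each Spearman's coefficient. Without the 2 litters farthest from each list's median these were 0.81 and 0.91. For the T cell and NK cell means, all 12 relations turned negative when sham replicate 1 and IUGR replicate 4 were left out, so they rest on those 2 litters. The other 24 stayed positive without their 2 farthest litters, but these were other pairs. They were IUGR replicates 1 and 4 for the pan-leukocyte and macrophage means, and IUGR replicate 1 and sham replicate 1 for the B cell mean. For the endothelial mean they were IUGR replicate 4 and sham replicate 4. None of the 24 was computed without both sham replicate 1 and IUGR replicate 4, so the lists cannot be compared in this respect.
Sham replicate 4 changed the call for the endothelial relations. Without it, 4 of them passed the adjusted threshold: r was 0.99 for Gimap8 (adjusted p = 0.011), 0.95 for Gimap9 (adjusted p = 0.011), 0.94 for Gimap6 (adjusted p = 0.043) and 0.92 for Gimap1 (adjusted p = 0.045, exact permutation tests over 7 litters). With all 8 litters the same r were 0.45, 0.52, 0.70 and 0.49, and after quantile normalization 0.33, 0.26, 0.60 and 0.18.

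For Gimap7 a pooled correlation would restate the 2 separate groups, and 4 litters per group are too few to test one. As a description, its deviations from the group means correlated at -0.14 with those of the pan-leukocyte mean, at 0.01 with the B cell, at -0.31 with the T cell and at 0.52 with the endothelial mean. Sham replicate 4 was the highest sham litter in both Gimap7 and the endothelial mean.

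The genes most like Gimap7 over all 8 litters, by plain Pearson correlation, were Grifin (0.987), Vom1r49 (0.975), Fut7 (0.970), Gpr63 (0.967) and Tas2r144 (0.967). Grifin is a galectin-related lens gene, Fut7 makes selectin ligands of leukocytes, Gpr63 is an orphan receptor, and Vom1r49 and Tas2r144 are pheromone and taste receptors. By deviations from the group means they were Fis1 (0.987), Or11g26b (0.980), Or6n2 (0.979), Cd40, a co-stimulatory receptor gene of B cells, (0.978) and Or1f31 (0.967). Of these 10 genes, 5 are chemosensory receptors. They were picked by a search of 14506 genes over 8 litters that share arrays, so the values carry no test. After quantile normalization Or11g26b was at 0.515 and Tas2r144 at 0.333. The genes most like Gimap6 by deviations were Rsbn1l (0.993), Invs (0.991), Zfp866 (0.988), Pald1 (0.985) and Parp9 (0.985). Gimap9 ranked 14 and Gimap5 83 in that list, while Gimap7 ranked 9580.

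Receptors of smell, taste and pheromones were therefore set beside Gimap7, a choice made after its likeness was seen. Of 1283 such genes, 1268 were lower in IUGR islets, by a median of -0.38 (-0.22 after quantile normalization), and in 26.5% all IUGR litters lay below all sham litters. For 74 of them the difference was at or below that of Gimap7. Their median value was 5.67, 6.28, 6.13 and 6.17 in sham replicates 1 to 4 and 5.70, 5.60, 5.63 and 5.65 in IUGR replicates 1 to 4. Sham replicate 1, which shares the wider signal range of the IUGR arrays, thus matched the IUGR litters in these receptors. In Gimap7 it did not, at 7.51 against 6.78 to 6.94. Genes in the same signal decile as Gimap7 (means of 7.21 to 8.00) differed by a median of 0.05, and 3.79% of those 1451 had all IUGR litters below. The part of the signal range in the Gimap7 value was not tested.

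Genes of lymphocyte survival signalling, the setting in which Gimap proteins are best known, did not move together. Of 27 measured, 13 were higher and 14 lower, with a median of -0.07 and 0 past the threshold. The interleukin 7 receptor gene Il7r was 9.47, 7.39, 7.97 and 7.67 in the sham and 7.42, 8.30, 8.54 and 7.15 in the IUGR litters (-0.27 ± 0.49). Sham replicate 1 was highest and IUGR replicate 4 lowest, as in Gimap1, Gimap5, Gimap6, Gimap8 and Gimap9. The common cytokine receptor chain gene Il2rg differed by -0.49 ± 0.26 and Klf2, a factor of quiescent T cells and endothelium, by -0.59 ± 0.37. Bcl2, the survival factor, differed by 0.11 ± 0.14, and the death factor gene Bcl2l11 by 0.56 ± 0.17 (adjusted p = 0.129). Socs1 differed by 0.27 ± 0.09 and Il2ra by -0.21 ± 0.08, both with separate groups, though Il2ra was at -0.02 after quantile normalization. Bcl2l11, Socs1 and Il2ra were named for their small p, so the separate groups are no independent result.

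Other immune GTPases gave a family of like function for comparison. Of 13 measured, 9 were lower and 4 higher, by a median of -0.20, and 0 passed. The interferon-inducible Gbp2 differed by -0.50 ± 0.20 with separate groups, Arl11 by -0.63 ± 0.24 and Rac2, a small GTPase of blood cells, by -0.60 ± 0.27. Gbp2, Arl11 and Rac2 were named for their small p, so the separate groups of Gbp2 are no independent result. Rac2 was 10.53 and 10.63 in IUGR replicates 1 and 4 and 11.44 to 12.05 in the other litters, the pattern of the leukocyte genes. Rac2 is also a member of the pan-leukocyte list, so this likeness is not independent of that list.

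Across 19 alternatives Gimap7 was lower in IUGR islets in every one, with differences from -0.95 to -0.76, and past the threshold in 7. Gimap7 was chosen for this difference and its groups lay apart, so leaving out a litter could not turn its sign. The alternatives use the same arrays, and the steady sign is a description and no support. The other 6 members passed in 0 of them, and each changed its sign in 2 to 6 (for Gimap5, of 18). Gimap9 reached 0.78 ± 0.35 and Gimap8 0.54 ± 0.33 with the pan-leukocyte mean as a covariate (adjusted p = 0.196 and 0.305, limma).

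**Figure D4:**
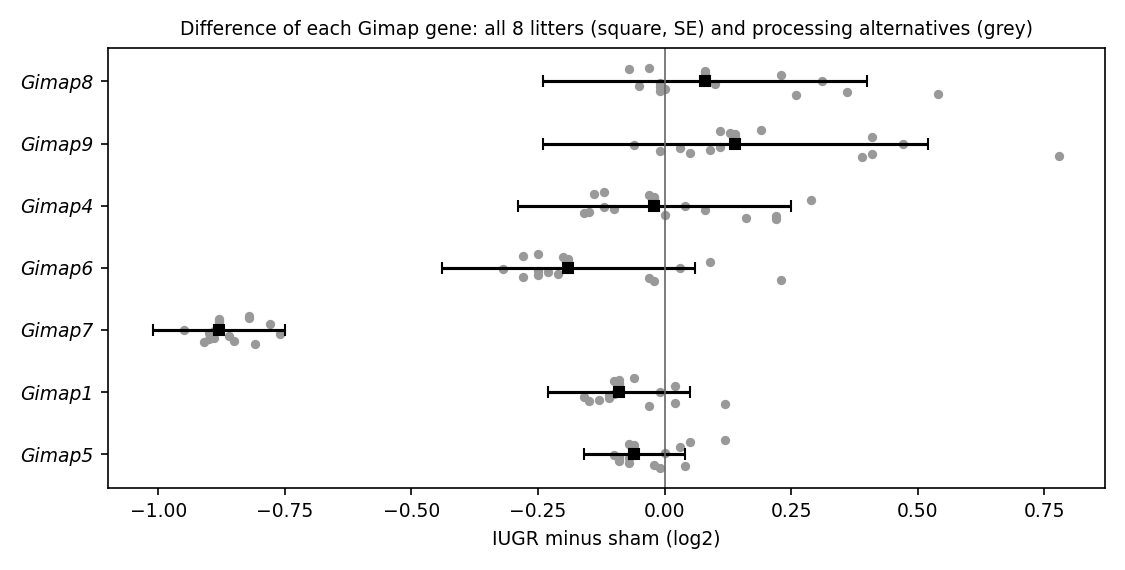
Difference between IUGR and sham litters (x axis, log2) for each Gimap gene (y axis): the square is the value on all 8 litters with its SE, and each grey point is 1 processing alternative. The points of Gimap7, which was chosen for its difference, lie between -0.95 and -0.76, and those of the other 6 lie on both sides of 0.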

How the data were processed

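The authors deposited 1 table of log2 expression values for 29214 probe sets on 8 arrays, and per the submitters' processing notes RMA was used. Its version and any probe filter: not given in the sources used here. Probe sets were named by the platform annotation, with symbols updated through RefSeq (GRCr8). It gave 1 gene for 15310 probe sets (15279 matched a current identifier, 31 did not), several for 323 and none for 13581. The brightest probe set stood for a gene, leaving 14506 genes. IUGR was set against sham by lmFit and eBayes of limma 3.58.1 (R 4.3.3), without covariates and with 8.21 total degrees of freedom, two-sided, with Benjamini-Hochberg adjustment over all genes at 0.05. On data simulated from these genes (200 of 14506 changed, 10 runs) 71.3% of the 2-fold and 93.3% of the 4-fold changes were recovered. The false share there was 6%. Recovery on the measured arrays, where calls ran from 0 to 6358 across settings, was not tested. Single relations used exact permutation over litters (scipy 1.17.1). Arrays have no read depth, and their number limits the precision.

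The family and the lists were chosen with earlier results of these data known. Within the family every member with a probe set was kept. The text names all Gimap genes, a set list of markers where measured, up to 3 genes per list by smallest p, the 5 genes most like Gimap7 or Gimap6, and 2 neighbours per side. The p-values measure the spread between litters. Figures were drawn with matplotlib 3.10.9.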

Additional observations from a re-analysis of the deposited data

Results flagged for a closer look

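Litters standing apart from the other 3 of their group were looked for among the 7 Gimap genes, the 66 other named genes and the 9 list means, 164 groups of 4 in all, by the gap to the nearest litter over the group's range (above Dixon's 95% value). There were 19, or 11.6%, where chance gives about 1 in 20 and these genes are not independent. Sham replicate 1 held 10, IUGR replicate 4 held 5, sham replicate 4 held 4 and the other litters 0. Among the Gimap genes there was 1, Gimap8 in IUGR replicate 4 (8.42). IUGR replicate 4 was also low for Kdr (10.75), Tmem176b (11.31), Rsbn1l (10.42) and the endothelial mean (9.77). Sham replicate 1 was high for Lck (8.56), Bcl2 (11.66), Cd79b (11.32), Gbp2 (8.85), Rsbn1l (10.56) and Pald1 (9.05). It was high too for the T cell (7.53), pan-leukocyte (10.79), macrophage (9.84) and immune GTPase means (8.52). Sham replicate 4 was high for Ms4a1 (6.16), Cd34 (12.58), Blk (7.37) and Or1f31 (5.57). No group of Gimap7 values met this measure.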

How the results depend on the processing

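The count of 36 genes past the threshold was 0 after quantile normalization, after cyclic loess, with all probe sets, with the replicate block, and with the pan-leukocyte or the endothelial mean as a covariate (both added after the data were seen). At an unadjusted p under 0.05 there were 3789 genes on all litters, and 3230, 3280, 4044, 2715, 3953 and 3584 under those settings in that order. The count was 59 without the 30% dimmest genes and 6358 with array weights. Leaving out 1 litter at a time it lay between 0 and 2738, the highest without sham replicate 1. It was 157 without sham replicate 4, 43 without IUGR replicate 2, 2 without IUGR replicate 4 and 0 without any of the other 4. Gimap7 had an adjusted p of 0.226 with the replicate block, 0.075 after quantile normalization, 0.070 after cyclic loess, 0.062 with all probe sets, and 0.032 without sham replicate 4 and 0.006 without sham replicate 1. It did not pass without any of the other 6 litters (0.062 to 0.157). Same-numbered litters did not deviate together (correlations of -0.43, 0.10, -0.12 and -0.13), so the block rests on a shared number only. The 6 other Gimap genes stayed at 0 calls in all 19 alternatives. Calls in the lists, 0 on all litters, appeared with array weights, where 43.8% of all genes passed. They were 6 of 20 T cell, 1 of 10 B cell, 9 of 17 NK cell and 1 of 18 pan-leukocyte genes. The others were 4 of 22 macrophage, 2 of 14 erythroid, 8 of 27 survival signalling and 5 of 13 immune GTPase genes. Without sham replicate 1, where 18.9% of all genes passed, calls were 4 of 20 T cell, 5 of 17 NK cell and 1 of 27 survival signalling genes. Without any other litter the lists had 0. The endothelial list, with 29 genes, had 0 throughout. Why these counts moved was not tested. None of the 66 other named genes was past the threshold on all litters, and 18 of them changed sign in some alternative. The number of arrays limits all of these results.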
